A study of Homo sapiens with 72 samples.

Results

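The 10 AP-1 transcription factor genes FOS, FOSB, FOSL1, FOSL2, JUN, JUNB, JUND, BATF, BATF3 and ATF3 were examined for histone methylation in 3 B-lineage leukaemia and lymphoma lines with and without bryostatin. They were taken by name, by a rule that used no measured value, although earlier results of these data were known when the family was chosen, and are 10 of 20033 protein-coding genes of GENCODE release 44. Raji is a Burkitt lymphoma line, and NALM6 and REH are lines from precursor-B acute lymphoblastic leukaemia. Bryostatin, an agonist of protein kinase C, was given at a dose of 1 nM overnight, and the untreated cells of each line served as the comparison. Cut&Tag, in which an antibody guides a transposase to a histone mark, was run for H3K4me2, H3K4me3 and H3K27me3 with 3 replicates for each line and treatment, 54 libraries in all. Each line stands for 1 established line of its disease, and the labels name no separate cultures, so p-values measure the spread between these libraries, which may be technical.

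AP-1 is a dimer of basic leucine zipper proteins. JUN proteins pair with each other or with FOS proteins, while FOS proteins need a JUN partner, and BATF proteins pair with JUN proteins and work with IRF4 or IRF8 on composite sites in lymphocytes. FOS, FOSB, JUN and JUNB are immediate-early genes, switched on within minutes by protein kinase C and MAP kinase signalling, and phorbol esters are the classic inducers of AP-1 activity. H3K4me3 marks the start of active and poised genes, H3K4me2 covers starts and enhancers, and H3K27me3 marks genes silenced by Polycomb.

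The libraries in RPKM units held 5.12 to 47.9 M (mega) mapped reads (median 18.8 M), as read from the size of the smallest step in the coverage. The 54 libraries had 590 to 101702 called peaks. The 6 libraries of NALM6 replicate 1 were on another scale, whose unit the sources used here do not give, and had shorter peaks, with a median length of 672 bp in H3K4me2 after bryostatin against 3070 and 3170 bp in replicates 2 and 3. The H3K4me3 library of NALM6 treated replicate 3 was shallow, with 5.41 M reads and 4389 peaks. NALM6 heights are therefore given for replicates 2 and 3. H3K4me3 peaks at the starts of B-lineage marker genes were in all 6 libraries of Raji for 7 of 7 genes, of NALM6 for 4 and of REH for 5, and for 0 of 7 markers of other blood and epithelial lineages in each line. Of the 3 precursor-B markers, 1 had such a peak in Raji, 2 in NALM6 and 2 in REH.

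The DNA just upstream of 4 of the genes shows how differently their promoters are built. Of these, FOS and BATF passed a main bryostatin test below, and FOSB and JUN did not. The 250 bases before the RefSeq start (GRCh38.p14) are given 5′ to 3′ along the gene's strand, for FOS at chr14:75278578-75278827 (plus strand), FOSB at chr19:45467746-45467995 (plus), JUN at chr1:58784048-58784297 (minus) and BATF at chr14:75522219-75522468 (plus). Capitals mark the letters TGACG, the core of a cAMP response element, TATAAA, and TGACATCA, the variant site known from the JUN promoter.
FOS: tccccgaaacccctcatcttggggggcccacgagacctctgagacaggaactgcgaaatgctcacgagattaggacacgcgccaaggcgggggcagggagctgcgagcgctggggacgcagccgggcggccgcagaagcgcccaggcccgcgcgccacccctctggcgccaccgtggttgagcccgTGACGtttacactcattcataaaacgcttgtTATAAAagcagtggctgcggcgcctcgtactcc
FOSB: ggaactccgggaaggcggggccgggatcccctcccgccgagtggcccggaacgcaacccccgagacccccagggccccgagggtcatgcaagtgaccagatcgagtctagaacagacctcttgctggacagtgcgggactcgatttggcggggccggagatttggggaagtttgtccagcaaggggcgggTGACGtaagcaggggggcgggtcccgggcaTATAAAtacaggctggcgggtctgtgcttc
JUN: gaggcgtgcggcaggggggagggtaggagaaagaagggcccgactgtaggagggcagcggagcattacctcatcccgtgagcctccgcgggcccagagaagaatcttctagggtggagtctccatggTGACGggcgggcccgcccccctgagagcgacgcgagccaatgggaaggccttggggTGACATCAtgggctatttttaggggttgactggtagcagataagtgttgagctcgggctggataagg
BATF: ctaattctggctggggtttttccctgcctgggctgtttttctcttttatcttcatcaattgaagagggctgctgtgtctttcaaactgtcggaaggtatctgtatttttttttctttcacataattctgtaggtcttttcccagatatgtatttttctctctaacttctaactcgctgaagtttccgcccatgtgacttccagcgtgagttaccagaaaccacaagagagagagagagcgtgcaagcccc

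The FOS and FOSB stretches had the same order of elements. TGACG lay 64 to 60 bases before the start in FOS and 60 to 56 bases before it in FOSB, and TATAAA lay at 33 to 28 and at 30 to 25 bases. TGACATCA stood 67 to 60 bases before the JUN start, and the core of the response element 123 to 119 bases before it. The BATF stretch held none of the letters searched except the GC box GGGCGG, and its GC content of 43.2% was at the 19.4th percentile of all promoters. FOS had 64.8% GC and 25 CpG dinucleotides, FOSB 65.6% and 19, JUN 62% and 14, and BATF 5 CpG, beside medians of 58% and 11 over 35116 RefSeq promoters.

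RefSeq promoters were matched for 8 of the 10 genes, and FOSL1 and BATF3 had no entry. On either strand, TGACG was in 6 of these 8 (FOS, FOSB, FOSL2, JUN, JUNB and JUND) and in 21.2% of all promoters. The full cAMP response element TGACGTCA, which contains TGACG, was in JUND and in 1.65% of promoters. TGACATCA was in JUN and ATF3 and in 2.37% of promoters, and TATAAA was in FOS, FOSB, JUNB and ATF3 and in 6.80%. For ATF3, which has 2 RefSeq entries, TGACATCA was in the first, 73 bp from the 5′ end of the gene, and TATAAA in the second, 49684 bp into it, and neither is the internal start that carried H3K4me3. GGGCGG was in 7 of the 8 and in 42.6% of promoters. The AP-1 site itself, TGACTCA, was in 0 of the 8 and in 4.20% of promoters, and the CArG box bound by serum response factor was in 0 and in 1.16%. These are matches of letters within this window only.

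Peaks at the gene starts came first. A peak was counted when it touched 1 kb on either side of an annotated start. In REH, H3K4me2 peaks were at the starts of all 10 genes in all 6 libraries, beside 54.2% of protein-coding genes in all 3 untreated and 49.2% in all 3 treated libraries. In Raji, 8 of the 10 had them in all 6 libraries (44.4% and 50.4% of genes), and FOSL1 and BATF3 had none in any library. H3K4me3 gave the same 8 genes in Raji, while in REH BATF had no peak and FOSL1 had 1 peak, in an untreated library. In untreated cells the 8 genes with H3K4me3 in all 3 libraries compare with 51.9% of all protein-coding genes in Raji and 42.2% in REH. NALM6 had H3K4me3 peaks in all 6 libraries for FOSL2, JUNB and JUND, near the share of all genes (32.4% untreated, 25.1% treated), and in no library for FOSL1 and BATF.

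BATF and BATF3, the lymphoid members, were split between the lines. BATF, which programs T helper and B cell differentiation with IRF partners, had H3K4me3 in all 6 Raji libraries and in no NALM6 or REH library. That pattern was shared by 2.13% of protein-coding genes for Raji against NALM6 and by 1.67% for Raji against REH. BATF3, known for the development of cross-presenting dendritic cells, had H3K4me3 in all 6 REH libraries and none in Raji, as did 2.41% of genes. In H3K4me2, FOSL1 and BATF3 were present in all REH and absent from all Raji libraries (4.98% of genes), BATF was present in all REH and absent from all NALM6 libraries (3.98%), and BATF3 was present in all NALM6 and absent from all Raji libraries (1.45%).

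FOS (chr14:75278826-75282230 in hg38, plus strand, 3405 bp long), the prototype immediate-early gene, had the clearest response to bryostatin. The height of its H3K4me3 peak in untreated Raji was 309, 244 and 338 RPKM in replicates 1 to 3, and after bryostatin it was 734, 667 and 691. The groups did not overlap, and the lowest treated library stood well above the highest untreated one. In REH the untreated heights were 1116, 940 and 816 RPKM and the treated heights 1955, 1828 and 1861, again with no overlap. The highest 10-bp bin rested on 49 to 148 reads in untreated and 93 to 182 reads in treated Raji, and on 83 to 311 and 276 to 453 reads in REH. In NALM6, replicates 2 and 3 had heights of 371 and 436 RPKM untreated, and after bryostatin 549 in replicate 2 and no called peak in replicate 3, the shallow library. Replicate 1 of NALM6 had no H3K4me3 peak at FOS in either group. In bulk samples, more cells with the mark and more mark per cell cannot be told apart.

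Over all genes with a peak across their 5′ end in the 6 libraries, treated heights lay entirely above untreated ones for 2.68% of 8551 in Raji, where FOS was the only one of 7 members measured, and for 6.33% of 7062 in REH, where FOS and FOSL2 were 2 of 6 measured. Taking the highest peak at any start instead, REH heights lay apart upward for 6.51% of 8235 genes, and FOS, FOSB and FOSL2 were 3 of the 8 members among these genes. These counts of heights, lengths and ends, and those that follow, were chosen after the values were seen, and they are descriptions.

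The test across the genome used the total signal of each merged peak region, on a log2 scale centred on the library. The FOS region gained 1.51 log2 units of H3K4me3 in Raji (SE 0.22, a 2.85-fold rise, limma adjusted p = 0.0288) and ranked 13th of 9040 regions by p, where 0.155% of regions passed, all 14 of them upward. In REH it gained 0.67 log2 units (SE 0.07, 1.59-fold, limma adjusted p = 0.00057), rank 10 of 7238, where 1.67% of regions passed. In both lines the treated totals did not overlap the untreated ones. Each call was repeated with libraries left out. In Raji, leaving out any 1 of the 6 libraries kept the change between 1.33 and 1.66 log2 units but took the limma adjusted p to between 0.0559 and 0.255, so the call needed every library. Untreated Raji replicate 1 was also the deepest library of all (47.9 M reads), and without it the change was 1.33 (adjusted p = 0.0559). In REH the call held without each library in turn, at limma adjusted p values from 5.27e-06 to 0.0115.

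**Figure D1:**
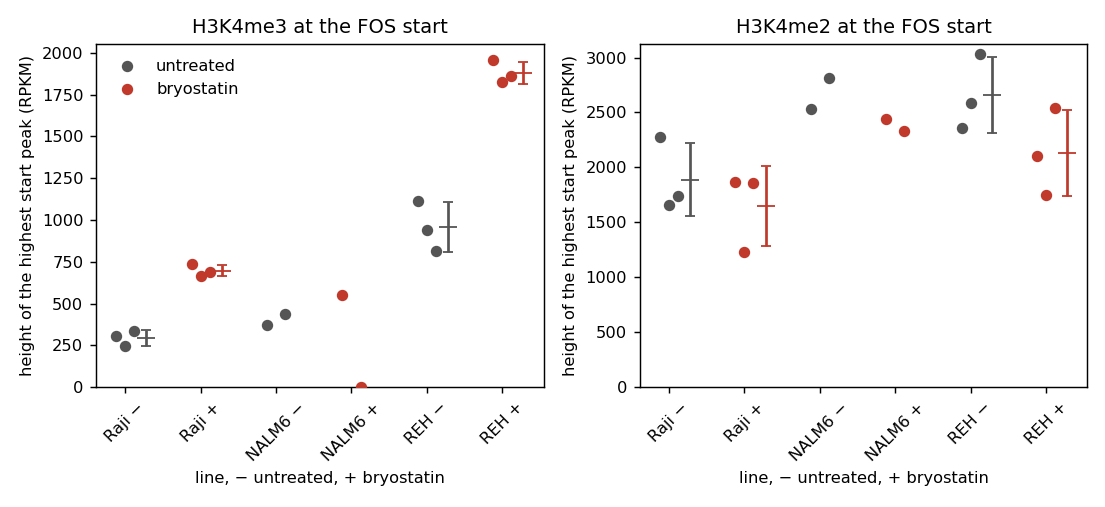
Height of the highest FOS start peak (RPKM) in each library, untreated (grey) and bryostatin (red), for H3K4me3 (left) and H3K4me2 (right). Points are libraries and bars the mean ± SD of 3, with no bar for NALM6, of which replicates 2 and 3 are drawn and where 0 means no called peak. H3K4me3 heights do not overlap between groups in Raji and REH, and H3K4me2 heights do.

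Taken over the FOS gene and 3 kb on either side, the H3K4me3 total in Raji was 0.196 ± 0.015 of the library's median peak untreated and 0.504 ± 0.039 treated (SD, n = 3 each, ratio 2.57), with an exact permutation p of 0.1, the smallest that 3 against 3 allows. Such windows lay entirely higher after bryostatin for 0.681% of 11743 genes. JUN was the 1 member whose window lay entirely lower, at 1.09 ± 0.08 and 0.892 ± 0.103 of a median peak, as for 7.3% of genes. Over all 3 marks and 3 lines these 2 were the members' only windows without overlap, beside 2.32% of all gene windows. In REH it was 1.17 ± 0.32 and 1.74 ± 0.25 (ratio 1.48, exact permutation p = 0.2, n = 3 each). Within 1 kb of the 5′ end alone the REH totals were 0.703 ± 0.171 and 0.781 ± 0.071 of a median peak (exact permutation p = 0.6, n = 3 each), so there the groups overlapped. In these windows a peak that crossed the edge was counted by the share of its bases inside. A longer peak thus gave a smaller share of its total to the narrow window, and these totals do not measure the height near the start.

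H3K4me2 at FOS was high from the outset and did not pass the test. Untreated heights were 2275, 1657 and 1738 RPKM in Raji and treated heights 1869, 1229 and 1856. In REH they were 2357, 2586 and 3033 untreated and 2104, 1751 and 2538 treated, and in NALM6 replicates 2 and 3 they were 2535 and 2814 untreated and 2442 and 2336 treated. The groups overlapped in Raji and REH. The log2 changes of the region were -0.08 (Raji, limma adjusted p = 0.898), -0.18 (REH, adjusted p = 0.617) and 0.37 (NALM6, adjusted p = 0.999, and -0.06 without its replicate 1), and the Raji value turned to 0.085 when the maximum signal was used and to 0.17 without centring. In REH the FOS peak was among the highest of each library, at the 96.6th to the 99.4th percentile of heights in H3K4me2, against the 4.2nd to the 61.0th in H3K4me3. In Raji the H3K4me3 peak ranked from the 3.7th to the 29.5th percentile, so the response was of a low peak.

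The FOS peaks also changed in extent. In REH the H3K4me2 peak ended 1844, 1624 and 1604 bp downstream of the 5′ end untreated, and 3044, 3124 and 3134 bp after bryostatin, close to the end of the gene. The groups did not overlap. The H3K4me3 peak in REH ended at 1504, 1504 and 1174 bp untreated and at 1674, 2944 and 3054 bp treated, and in Raji at 874, 1394 and 884 bp and at 1444, 2084 and 1794 bp. In both marks of REH the treated peaks reached further, and so did those of H3K4me3 in Raji, although the closest pairs of libraries, 1394 and 1444 bp in Raji and 1504 and 1674 bp in REH, lay near each other. The highest H3K4me2 signal lay 270 to 330 bp upstream of the 5′ end in Raji and REH, and the highest H3K4me3 signal mostly downstream of it.

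Longer peaks after bryostatin were common in these libraries. The H3K4me2 peak across the 5′ end was longer in every treated than in every untreated REH library for 9.73% of 8511 genes, among them FOS, FOSB, FOSL2 and BATF, and its downstream end lay further for 8.17%, among them the same 4 members of the 9 measured. In REH H3K4me3 the peak was longer without overlap for 1.81% of 7062 genes, FOS and FOSL2 among them. In Raji the H3K4me3 end lay further for 5.3% of 8551 genes, FOS among them, and the H3K4me2 peak was longer for 13.6% of 7324 genes, including FOSL2 and JUND but not FOS. Treated Raji H3K4me2 libraries held 15.6 to 18.8 M reads against 6.70 to 13.9 M untreated. In REH the treated H3K4me2 libraries held 18.2 to 22.8 M reads against 13.7 to 18.8 M untreated. The part of depth in these lengths was not tested in either line.

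**Figure D2:**
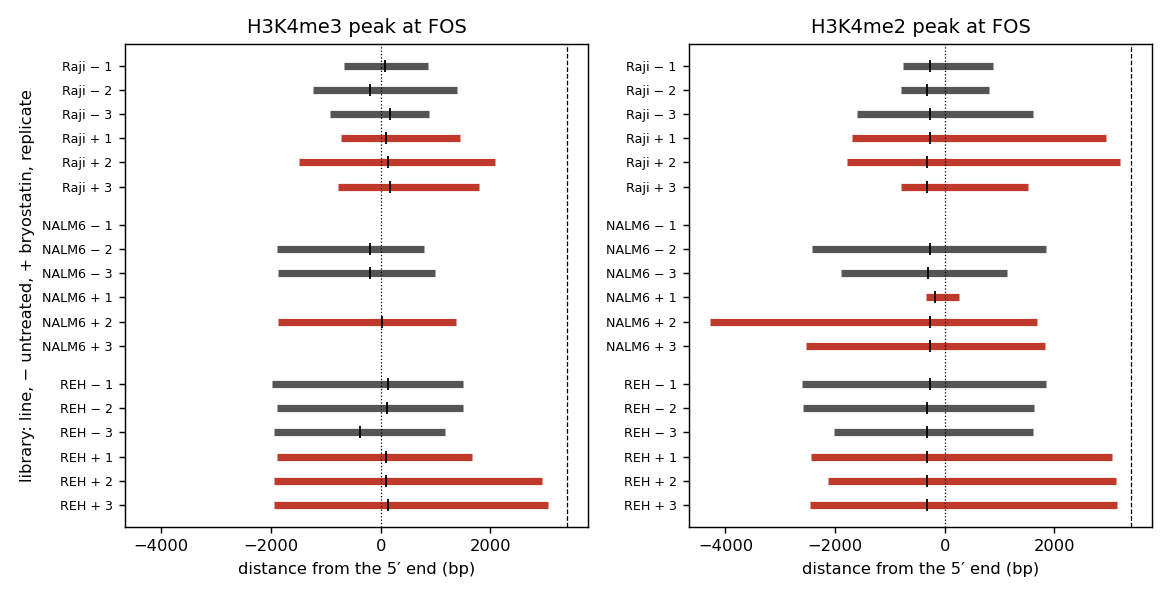
Extent of the peak at the FOS start in each library (bp from the 5′ end), untreated in grey and bryostatin in red, for H3K4me3 (left) and H3K4me2 (right). Ticks mark the highest signal, the dotted line the 5′ end and the dashed line the 3′ end of the gene, 3405 bp long. REH peaks of H3K4me2 end at 1604 to 1844 bp untreated and at 3044 to 3134 bp treated, and an empty row is a library with no peak over this stretch.

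FOSB (chr19:45467995-45475179, plus strand), an immediate-early partner of JUN, had higher H3K4me3 in treated REH that did not pass the test. Its H3K4me3 heights in REH were 1026, 951 and 1022 RPKM untreated and 1070, 1118 and 1273 treated, and in Raji 1385, 731 and 1117 untreated and 734, 759 and 1025 treated. The groups overlapped in Raji and stood just apart in REH. The REH region total differed by 0.47 log2 units (SE 0.12) with a limma adjusted p of 0.105. It was 0.0496 when the replicate number entered as a block, 0.0332 without untreated replicate 1 and 0.0344 without untreated replicate 3. The Raji change was -0.09 (SE 0.21, limma adjusted p = 0.987). FOSB H3K4me2 peaks in REH measured 4080, 4390 and 4070 bp untreated and 4550, 5500 and 5410 bp treated, with heights that overlapped (1142 to 1335 and 1177 to 1289 RPKM). The log2 change of that mark was 0.11 (limma adjusted p = 0.747).

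FOSL2 (chr2:28392448-28417317, plus strand), which encodes FRA2, carried both H3K4 marks in every library. In REH the H3K4me3 heights were 1428, 1673 and 1631 RPKM untreated and 1934, 1777 and 1824 treated. The 3 treated libraries were the higher ones, and the peaks lengthened from 5000, 4490 and 4260 bp to 6450, 6090 and 6520 bp. The total signal changed by 0.19 log2 units (SE 0.06, limma adjusted p = 0.212) and did not pass. In Raji the heights were 1391, 935 and 1051 RPKM untreated and 1116, 1034 and 869 treated, which overlap. In NALM6 the log2 change was -0.50 (SE 0.27, limma adjusted p = 0.9996), and -0.57 (adjusted p = 0.936) without replicate 1 of both groups, with the treated replicate 3 peak 1270 bp long in the shallow library against 5730 bp in replicate 2.

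FOSL1 (chr11:65892049-65900573, minus strand), which encodes FRA1, had H3K4me2 in every REH library and in no Raji library. The REH heights were 786, 847 and 1098 RPKM untreated and 933, 1008 and 1116 treated, and the log2 change was 0.03 (SE 0.14, limma adjusted p = 0.965). The groups overlapped. Outside REH, 1 treated NALM6 library had a peak of 734 RPKM. H3K4me3 was called once, at 230 RPKM in an untreated REH library. The broad peaks at the 3′ side of the gene, in all 6 libraries of each line, held the starts of the neighbours CCDC85B and FIBP and are not counted as FOSL1 signal.

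JUN (chr1:58776845-58784048, minus strand) encodes c-Jun, the partner through which most AP-1 dimers form. Its H3K4me3 heights in Raji were 1024, 1020 and 794 RPKM untreated and 652, 788 and 735 treated, lower without overlap, as for 5.3% of 8551 genes. In REH they were 1428, 1562 and 1277 untreated and 1311, 1439 and 1240 treated, and the groups overlapped. The region totals differed by -0.14 log2 units (SE 0.15, limma adjusted p = 0.959) for Raji and by -0.07 (SE 0.10, adjusted p = 0.877) for REH. H3K4me2 changes were -0.15 in Raji, -0.17 in REH and 0.22 in NALM6, with limma adjusted p values of 0.805, 0.655 and 0.999. No JUN change passed the test in either mark in these lines.

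JUNB (chr19:12791486-12793315, plus strand), an inducible JUN that also restrains c-Jun, had the highest H3K4me3 peaks of the 10 genes in every library in RPKM units. H3K4me3 heights were 3837, 2308 and 2454 RPKM in untreated Raji and 2585, 1906 and 2465 in treated Raji, and 2522, 2746 and 4422 and 2536, 2860 and 2707 in REH. Groups overlapped in both lines. In H3K4me2 the untreated Raji heights were 3105, 1926 and 2077 RPKM and the treated ones 1908, 1666 and 1731, every treated library below every untreated one, as for 6.72% of 7324 genes. The H3K4me2 region total differed by -0.25 log2 units (SE 0.11, limma adjusted p = 0.718) for Raji and by -0.15 (SE 0.12, adjusted p = 0.741) for REH. H3K4me3 changes were -0.01 in Raji and -0.07 in REH, with limma adjusted p values of 0.997 and 0.823. The merged JUNB region also held the start of HOOK2 in both marks, so its total covers both genes.

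JUND (chr19:18279694-18281622, minus strand), the JUN gene expressed in resting cells, kept its H3K4me3 within the spread of the libraries. Its H3K4me3 heights were 1734, 1447 and 1835 RPKM untreated and 1886, 1705 and 1878 treated in Raji, and 2182, 2157 and 2958 untreated and 2423, 2316 and 2625 treated in REH. Both pairs overlapped. The log2 changes were 0.14 for Raji (SE 0.12, limma adjusted p = 0.933) and -0.09 for REH (SE 0.07, adjusted p = 0.721). The H3K4me2 heights in REH were 1025, 1179 and 1171 RPKM untreated and 953, 887 and 985 treated, lower without overlap, as for 7.26% of 8511 genes, and the region total changed by -0.05 (SE 0.09, limma adjusted p = 0.899).

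BATF (chr14:75522455-75546993, plus strand, 240 kb from FOS) gave the only H3K4me2 call among the members. The REH heights overlapped, at 828, 716 and 1011 RPKM untreated and 953, 699 and 814 treated, and the lengths did not, at 3360, 3020 and 1710 bp untreated and 3800, 4060 and 3910 bp treated. The lengths separated the groups and the heights did not. The 1710 bp peak was in untreated replicate 3, the shallowest REH library of this mark (13.7 M reads). The part of depth in these lengths and in the total was not tested. The region total rose by 0.65 log2 units (SE 0.14, 1.57-fold, limma adjusted p = 0.0369, rank 134 of 10791), where 1.45% of regions passed, 153 upward and 4 downward. On the maximum signal the change was -0.0095 (adjusted p = 0.994). The limma adjusted p rose above 0.05 without untreated replicate 1 (0.0734) or 3 (0.051), or without treated replicate 1 (0.169) or 2 (0.14), and the change stayed between 0.46 and 0.77 when each library was left out. With the replicate block it was 0.00287. In Raji the lengths were 790, 1040 and 4110 bp untreated and 3650, 5330 and 3410 bp treated, the heights 963, 747 and 606 RPKM and 775, 388 and 670 RPKM, and the change was 0.46 log2 units (SE 0.18, limma adjusted p = 0.718). There the groups overlapped in height and length, and no Raji region passed in H3K4me2 (0% of 9316, with 626 at an unadjusted p under 0.05).

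The BATF H3K4me3 peak of Raji was low, with heights of 309, 343 and 352 RPKM untreated and 294, 297 and 497 treated, and its log2 change of 0.17 (SE 0.37, limma adjusted p = 0.987) ran from -0.14 to 0.49 when libraries were left out. A further H3K4me2 peak lay within the gene in all 6 Raji libraries, at chr14:75540941-75544760, 18486 to 22305 bp from the 5′ end, with no annotated protein-coding start. In 4 NALM6 libraries, those of replicates 2 and 3, H3K27me3 covered nearly the same stretch.

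BATF3 (chr1:212686417-212699840, minus strand) had H3K4me2 heights in REH of 1460, 1407 and 1906 RPKM untreated and 1250, 1399 and 1435 treated. In NALM6 replicates 2 and 3 they were 1072 and 1189 untreated and 822 and 747 treated. The REH groups overlapped, and 2 NALM6 libraries a group are too few to compare heights. The log2 changes were -0.15 in REH (SE 0.08, limma adjusted p = 0.618) and 0.02 in NALM6 (SE 0.25, adjusted p = 0.999), the latter -0.18 (adjusted p = 0.44) without replicate 1. H3K4me3 in REH was 890, 882 and 1160 RPKM untreated and 928, 785 and 760 treated, with a change of -0.22 (SE 0.11, limma adjusted p = 0.545).

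ATF3 (chr1:212565334-212620777, plus strand, 65.6 kb from BATF3), a stress-induced member, carried H3K4me3 at an internal start far from its 5′ end (chr1:212607361-212610890 in REH), while H3K4me2 lay there and, in some libraries, also near the 5′ end. The H3K4me3 heights there were 1956, 1891 and 2280 RPKM in untreated REH and 1700, 1731 and 1737 in treated REH, every treated library lower, as for 3.76% of the 8235 genes. In Raji they were 1086, 487 and 385 untreated and 417, 638 and 445 treated, which overlap. The region totals differed by -0.12 log2 units for REH (SE 0.07, limma adjusted p = 0.577) and by 0.04 for Raji (SE 0.27, adjusted p = 0.994), so the lower REH heights did not carry into a change of the total that passed.

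Over the family, the bryostatin tests covered the members whose region was called in every library. In H3K4me3 FOS passed alone among 8 tested members of Raji and among 8 of REH, and 0 of 3 passed in NALM6, where 0% of 3838 regions passed and 7 had an unadjusted p under 0.05. In H3K4me2 BATF alone passed among 10 of REH, while 0 of 8 passed for Raji and 0 of 6 for NALM6, where 0% of 4128 regions passed and 56 had an unadjusted p under 0.05. Median log2 changes of the members in H3K4me3 were 0.05 in Raji, -0.07 in REH and -0.09 in NALM6, against -0.01, -0.0011 and -0.00086 over all regions. In H3K4me2 they were -0.11, -0.05 and 0.02, against -0.03, -0.02 and -0.02. The middle of the family thus lay near the middle of all regions, and FOS and BATF were the members that passed. FOSB in REH H3K4me3 did not pass the main test. It passed with the replicate block (limma adjusted p = 0.0496) and without untreated replicate 1 or 3 (lowest limma adjusted p = 0.0332). On the maximum signal neither BATF nor FOS in H3K4me3 of Raji passed (FOS 1.31, limma adjusted p = 0.956). Without the variance trend these 2 calls were lost as well. Without centring the median of all regions was 0.25 in H3K4me3 and 0.21 in H3K4me2 of Raji, and FOS then gained 1.77 in H3K4me3 (limma adjusted p = 0.0362). Without replicate 1 of NALM6 the limma test also called 0 regions in that line, of 8891 in H3K4me2 and 4352 in H3K4me3 (1250 and 121 at an unadjusted p under 0.05).

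**Figure D3:**
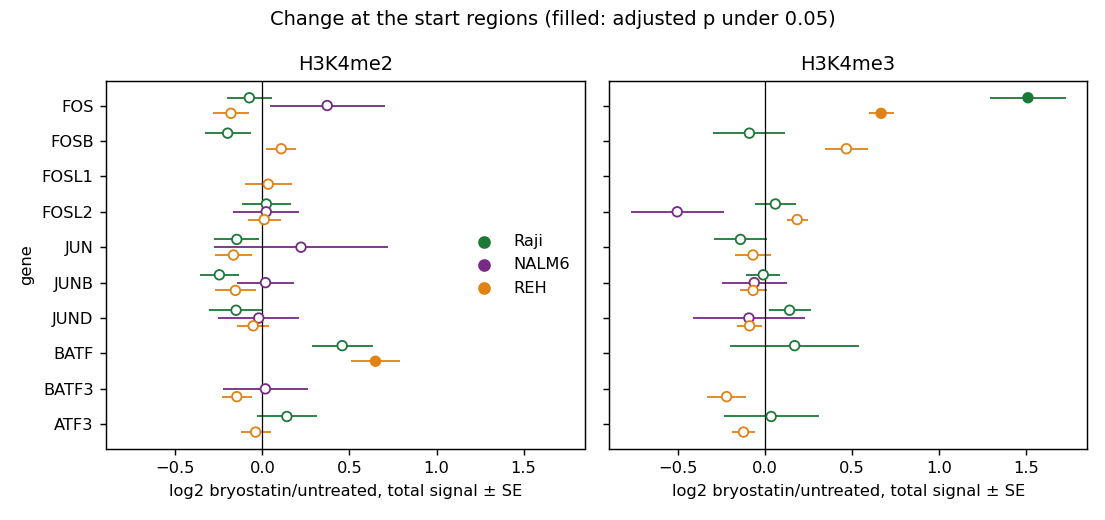
Log2 change of the total signal of each start region after bryostatin (x axis, ± SE of the limma fit on 3 against 3 libraries) for each gene, with lines by colour, for H3K4me2 (left) and H3K4me3 (right). Filled points passed an adjusted p of 0.05, FOS at 1.51 in Raji and 0.67 in REH for H3K4me3 and BATF at 0.65 in REH for H3K4me2. Genes without a point had no region called in all 6 libraries.

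The size of the FOS response was compared between lines. The H3K4me3 gain in Raji exceeded that in REH by 0.85 log2 units (SE 0.21, limma adjusted p = 0.454), where 0.0776% of 6447 regions passed. Blocked on the replicate number, the limma adjusted p became 0.0377, and on the maximum signal the difference was 0.35 (adjusted p = 0.999). In linear height the gain was larger in REH, since Raji rose from 297 ± 48.2 to 697 ± 34.1 RPKM and REH from 957 ± 151 to 1881 ± 65.9 RPKM in height (SD, n = 3 each). No member, FOS included, passed this test of response between Raji and REH without the block in H3K4me3, nor any in H3K4me2, where 0.0275% of 7267 regions passed. For Raji against NALM6 and for NALM6 against REH 0% of regions passed in either mark (33 to 106 regions had an unadjusted p under 0.05), and FOS could be tested there in H3K4me2 only.

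The untreated lines differed far more than the treatments. In H3K4me3, 5 of the 7 members tested were lower in Raji than in REH, where 51.3% of 6729 regions differed, 1604 higher and 1851 lower in Raji (200 and 895 without centring). FOS differed by -2.90 log2 units (SE 0.19), ATF3 by -2.50 (SE 0.14), JUN by -1.15 (SE 0.15), FOSL2 by -0.93 (SE 0.09) and JUND by -0.43 (SE 0.11), with limma adjusted p values between 1.02e-06 and 0.00734, of which JUND was lost without centring (-0.61, adjusted p = 0.143). On the maximum signal the 5 still passed, with FOS at -1.69, ATF3 at -1.79, JUN at -0.59 and FOSL2 at -0.50. FOSB (-0.05) and JUNB (-0.10) did not pass. Untreated FOS in REH, at 816 to 1116 RPKM, was already above treated FOS in Raji, at 667 to 734 RPKM.

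In H3K4me2, where 46.8% of 7999 regions differed, 1902 higher and 1842 lower in Raji (696 and 2129 without centring), 5 of 8 members were lower in Raji. FOS differed by -1.27 (SE 0.11), ATF3 by -1.06 (SE 0.14), JUN by -0.99 (SE 0.11), FOSL2 by -0.68 (SE 0.12) and JUNB by -0.39 (SE 0.12), with limma adjusted p values up to 0.0159. The JUNB call was lost without replicate 2 or 3 of either line (adjusted p 0.0576 to 0.0846), and the ATF3 and FOSL2 calls on the maximum signal (-0.28, adjusted p = 0.196, and -0.32, adjusted p = 0.137), where FOS was at -0.75 and JUN at -0.57. FOSB (-0.25), JUND (-0.22) and BATF (-0.23) did not pass. All members tested were lower in Raji in both marks, with and without centring, whether or not they passed, but FOSB in H3K4me3 was at 0.064 on the maximum signal. The comparisons between lines share their untreated libraries. In H3K4me2 the untreated Raji libraries held 6.70 to 13.9 M reads and those of REH 13.7 to 18.8 M. Median peak lengths in that mark were 1200, 1630 and 2640 bp in Raji and 2750, 2790 and 2350 bp in REH. In H3K4me3 Raji was the deeper, at 20.1 to 47.9 M reads against 10.2 to 27.9 M. The part of depth and peak length in these totals was not tested.

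The comparisons with NALM6 tested fewer members. At FOS, H3K4me2 did not pass in either with all 3 replicates (Raji minus NALM6 -0.51, limma adjusted p = 0.291, and NALM6 minus REH -0.71, adjusted p = 0.197), and H3K4me3 could not be tested. Both H3K4me2 values include NALM6 replicate 1, which had no H3K4me2 start peak at FOS, only the upstream one. Raji was below NALM6 at FOSL2 (-0.71 in H3K4me2, limma adjusted p = 0.0205, and -1.39 in H3K4me3, adjusted p = 0.00192) and at ATF3 in H3K4me2 (-0.69, adjusted p = 0.0424, and 0.072 with the replicate block). That is 2 of 7 members in H3K4me2 and 1 of 3 in H3K4me3, where 18.9% and 20.2% of all regions passed. NALM6 was below REH at BATF3 in H3K4me2 (-0.78, limma adjusted p = 0.0134, and 0.0508 with the block), 1 of 8 members against 11.4% of regions, and 0 of 3 members passed in H3K4me3 against 7.15%. The H3K4me2 differences of FOSL2 and ATF3 from Raji changed sign to 0.46 and 0.48 without centring, and both calls were lost (adjusted p 0.0531 to 0.167) when any library other than NALM6 replicate 1 was left out. The BATF3 call was lost without NALM6 replicate 2 or any REH library (adjusted p 0.0535 to 0.0879).

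More members could be tested once NALM6 replicate 1, the rescaled one, was left out. In H3K4me3, FOS was then lower in Raji than in NALM6 by -1.25 log2 units (SE 0.24, limma adjusted p = 0.00292) and lower in NALM6 than in REH by -1.66 (SE 0.11, adjusted p = 5.59e-07). Without that replicate the order of FOS H3K4me3 was thus REH, NALM6, Raji, with each step beyond the spread of the libraries. JUN was lower in NALM6 than in REH by -1.28 (limma adjusted p = 1.45e-05), and Raji and NALM6 did not differ beyond their spread at JUN (0.11, adjusted p = 0.574). ATF3 followed the order of FOS, at -1.61 (limma adjusted p = 0.00018) and -0.91 (adjusted p = 1.38e-05). In all, 4 members passed for Raji against NALM6 and 5 for NALM6 against REH, where 45.1% and 44.7% of regions passed. In H3K4me2 the counts were 5 and 2, where 32.9% and 33.8% of regions passed. The number of members tested without that replicate is not given here, so these counts cannot be compared with the shares.

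H3K27me3 gave little that could be compared. Its libraries ranged from 819 to 101702 peaks in Raji and from 590 to 78673 in NALM6. BATF3 was the only member with H3K27me3 in all 6 libraries of a line, in Raji and in REH. Of all protein-coding genes, 1.39% had a start peak in all 3 untreated and 2.22% in all 3 treated Raji libraries. In REH these shares were 10.0% and 10.9%. In untreated Raji, ATF3 also had it in all 3 libraries, as did that 1.39% of genes. FOS, FOSL1, FOSL2 and JUN had it in 2, while 68.3% of all protein-coding genes had a start peak in at least 1 untreated Raji library. In NALM6 it was at FOS, FOSB, JUN, BATF, BATF3 and ATF3 in replicates 2 and 3 of both groups (15.3% of genes had it in at least 1 untreated NALM6 library), and there, without replicate 1, FOS differed by -1.38 (SE 0.35, limma adjusted p = 0.567), with 0 of 5845 regions called and 166 at an unadjusted p under 0.05. In REH, FOS had the mark in 2 untreated libraries, at 171 RPKM or less, and in 0 treated ones. FOSB had it in 1 untreated and 0 treated, ATF3 in 3 and 2, and FOSL1 in 0 and 1. How many of all genes shared such patterns was not counted, so they are not read as a change. With all libraries only BATF3 could be tested, with changes of -0.38 for Raji (SE 0.29, limma adjusted p = 0.942) and -0.51 for REH (SE 0.33, adjusted p = 1). In this mark 0% of regions passed in each line (552 tested for Raji, 258 for NALM6 and 8324 for REH), with 20, 2 and 216 at an unadjusted p under 0.05. In REH, BATF3 carried H3K4me3, H3K4me2 and H3K27me3 peaks at its start in all libraries, and in Raji H3K27me3 alone.

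Other genes of the pathway were taken from lists by role. None of the bZIP partners passed in any bryostatin test (6 of 9 tested for H3K4me2 and 5 of 9 for H3K4me3 in Raji), nor any of the 12 kinases and factors upstream of AP-1 (12 tested in Raji in each mark, 11 in REH and 7 in NALM6), nor IRF4 or IRF8. Of 10 textbook AP-1 target genes, CD69, an early activation antigen of lymphocytes, passed for H3K4me3 in Raji, with a gain of 1.05 log2 units (SE 0.15, 2.08-fold, limma adjusted p = 0.0279, rank 10 of 9040). It was 1 of 3 targets tested there. CD69 had H3K4me3 in all 6 Raji libraries and in none of NALM6 or REH. That pattern was shared by 2.13% of protein-coding genes for Raji against NALM6 and by 1.67% for Raji against REH. In that comparison 0 regions, CD69 included, passed without untreated replicate 3 or without bryostatin replicate 2 or 3 (397, 463 and 450 at an unadjusted limma p under 0.05).

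Other listed genes, partners of the AP-1 proteins among them, were also split between the lines, and those named here were picked for that split. IRF8 had H3K4me3 in all Raji libraries and in none of NALM6 or REH, and IRF4 had it in all Raji and NALM6 libraries and none of REH. Raji was therefore the line in which BATF and both its IRF partners carried H3K4me3 in every library. JDP2, a repressor of AP-1, had H3K4me3 in all REH and no Raji library. In H3K4me2, MAF was marked in all REH libraries and in none of the other lines, MMP9 in all Raji and no NALM6 library, and PLAUR in all REH and no Raji library. Over all protein-coding genes, H3K4me3 was in all Raji and no NALM6 library for 2.13%, and in all Raji and no REH library for 1.67%. It was 0.175% for NALM6 against REH and 2.41% for REH against Raji. In H3K4me2 the shares were 4.98% for REH against Raji, 3.98% for REH against NALM6 and 2.69% for Raji against NALM6.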

How the data were processed

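The 54 Cut&Tag libraries of the 3 marks and 3 lines, untreated or given bryostatin, were used, and IgG libraries were not used here. Groups came from the sample labels. The authors aligned reads to hg38 with Bowtie2 after Trim Galore and called peaks in each library with SEACR (stringent), and versions are not given in the sources used here. The deposited peaks give the total and the maximum signal, read as coverage in RPKM over 10-bp bins from the step of the values, except in NALM6 replicate 1, whose scaling is not stated. A step gives the reads mapped, with a largest deviation from whole reads of 0.0243, and intervals from reads would cover counting error only.

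Peaks of a line and mark that overlapped by at least 1 bp were merged (both lines for line comparisons). Regions called in all 6 libraries were tested as log2 total signal, centred on each library's median over those regions, with limma 3.58.1 (R 4.3.3, trended prior) and Benjamini-Hochberg adjustment at 0.05 over all regions. A region whose total is 0 in a library was not tested, so presence was reported apart. Single totals were compared by two-sided exact permutation tests. Genes and starts were those of GENCODE 44. Python 3.11.15, pandas 2.3.3, numpy 2.4.6 and scipy 1.17.1 were used, and matplotlib 3.10.9 for drawing. Scripts were tested on simulated data.

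Replicate numbers are shared between groups in the labels. Same-numbered libraries deviated together (correlation of deviations from the group mean) by 0.48 to 0.54 in H3K4me3 of Raji, 0.63 to 0.68 in NALM6 and 0.18 to 0.31 in REH. The values were 0.40 to 0.45 in H3K4me2 of NALM6 and 0.13 to 0.21 in REH, and 0.65 to 0.66 in H3K27me3 of NALM6. In NALM6, replicates 2 and 3 also deviated together across unlike numbers (0.35 and 0.41 in H3K4me2, 0.51 and 0.57 in H3K4me3, 0.44 and 0.52 in H3K27me3). The NALM6 values thus set replicate 1 apart and cannot show that replicates 2 and 3 pair by number. Unlike numbers deviated together less in H3K4me3 of Raji (at most 0.19) and in both H3K4 marks of REH. There the numbers may pair the libraries, but the REH values are low. In H3K4me3 of Raji, replicates 2 and 3 also deviated together across unlike numbers (0.16 and 0.19). The main tests therefore treat the libraries as unpaired. Same-numbered libraries showed no pairing in H3K4me2 of Raji (-0.31 to 0.42) or in H3K27me3 of Raji (-0.22 to 0.40) and REH (-0.16 to 0.11). Alternatives were a replicate block, the maximum signal, no centring, no variance trend, an overlap of 100 bp for merging or 200 bp in a window, windows of 2 kb, gene bodies without flanks, 5′ ends only, peaks above the library's median, equal numbers of peaks, regions in at least 3 libraries, bryostatin libraries for the line comparisons, and each library left out.

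Named genes were the 10 members, and listed pathway genes that passed a bryostatin test or were marked in all libraries of a line and none of another. Members and lists were chosen with earlier results of these data known.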

Additional observations from a re-analysis of the deposited data

How the results depend on the processing

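The H3K4me3 gain at FOS kept its direction under every setting in which it could be tested. In REH it passed in all of them (adjusted p up to 0.0115), and with peaks above the median only it could not be tested. In Raji (1 member called) the count was 0 on the maximum signal (1.31, adjusted p = 0.956), 0 without the variance trend (adjusted p = 0.064), 0 with peaks above the median only, where FOS had no region in every library, and 0 to 0 with each library left out. The REH count of 1 was 2 with the replicate block, which added FOSB, 0 with peaks above the median, and 1 to 2 with a library left out. The H3K4me2 count of 1 in REH (BATF) was 0 on the maximum signal, 0 without the variance trend, 0 with peaks above the median and 0 to 1 with a library left out. Besides the causes named, the cause of these changes was not tested.

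Directions turned for FOS H3K4me2 in Raji (0.085 on the maximum signal, 0.17 without centring), for BATF H3K4me2 on the maximum signal (-0.079 in Raji, -0.0095 in REH), for BATF H3K4me3 in Raji (-0.14 without untreated replicate 1, -0.04 without bryostatin replicate 2, range -0.14 to 0.49), and without centring for FOSL2 (0.46) and ATF3 (0.48) between Raji and NALM6 in H3K4me2.

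Counts between lines depended on the setting. Raji against REH in H3K4me2 (5) was 3 on the maximum signal (FOS, JUN and JUNB), 8 in bryostatin libraries and 4 to 6 with a library left out, and in H3K4me3 (5) it was 2 with peaks above the median, where fewer members could be tested, 4 without centring and 6 in bryostatin libraries. Raji against NALM6 in H3K4me2 (2) was 0 on the maximum signal, 0 without centring, 1 with the replicate block, 0 with peaks above the median and 0 to 5 with a library left out. In H3K4me3 (1) it was 0 without centring, 0 with peaks above the median, 0 in bryostatin libraries and 1 to 4 with a library left out. NALM6 against REH in H3K4me2 (1) was 0 without centring, 0 with the block, 0 with peaks above the median, 0 in bryostatin libraries and 0 to 2 with a library left out, and in H3K4me3 (0) it was 0 to 5. The counts of 5, 4, 2 and 5 were those without NALM6 replicate 1. The Raji against REH response count in H3K4me3 (0) was 1 with the replicate block (FOS). With libraries left out, the number of all regions called in H3K4me3 ran from 0 to 16 in Raji and from 51 to 223 in REH. The block changed no other member call. Where the numbers showed no pairing (H3K4me2 of Raji, H3K27me3 of Raji and REH) it left the member counts at 0. Over all regions it raised the bryostatin calls from 14 to 132 (H3K4me3, Raji), from 121 to 202 (H3K4me3, REH), from 157 to 305 (H3K4me2, REH) and from 0 to 17 (H3K27me3, REH).

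The difference in the number of members with a start peak (bryostatin minus untreated, mean per library) was 0 for H3K4me2 in Raji, and 1 with peaks above the median, 0.333 with 5′ ends only and 0.333 with equal numbers of peaks. It was 0 for H3K4me2 in REH (0.333 above the median), 0 for H3K4me3 in Raji (-1.33 above the median, 1 with equal numbers) and -0.333 for H3K4me3 in REH (0.667 above the median). For the other marks and lines it was -3 (H3K27me3, Raji), -1 (H3K27me3, REH), 0.667 (H3K27me3, NALM6), -0.333 (H3K4me3, NALM6) and 0 (H3K4me2, NALM6), and with a library left out these ran from -4.83 to -1.33, from -1.5 to -0.5, from -1.33 to 3, from -2 to 1.17 and from -0.667 to 0.833. Member windows with no overlap between groups, over all marks and lines, numbered 2 (FOS higher and JUN lower, both H3K4me3 of Raji, beside 2.32% of all gene windows), 1 with peaks above the median, and 3 to 16 with a library left out.

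Peak files hold no signal outside peaks, so a missing peak is not a signal of 0, and 3 libraries a group allow no exact p below 0.1.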
